A study of Homo sapiens with 12 samples.

Results

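The interleukin 1 family comprises cytokines that carry signals of injury and infection, together with the receptors that read them. Here 8 of its genes were followed: the ligand genes IL1A, IL1B, IL33 and IL18, the antagonist gene IL1RN, and the receptor genes IL1R1, IL1RL1 and IL1RAP. They were taken by name from the 18417 genes measured, and all 8 had 1 probe set that matched a single gene symbol. The choice was made with earlier results of these data known. Their counts set against all genes are therefore not independent support for a direction. The cells were EA.hy 926, an established human hybrid line of umbilical vein endothelium and a lung carcinoma. All cultures were kept in Medium 199 with 10% fetal calf serum, non-essential amino acids, antibiotics and an antifungal agent. Lo cells had been adapted to the low folate of that medium (23 nM folic acid), while Hi cells were parallel cultures with 9 uM folic acid. The 4 groups were Lo PMX (Lo cells with 0.5 uM pemetrexed, an antifolate drug, for 48 h), Lo control (untreated Lo cells), Hi PMX (Hi cells with the same treatment) and Hi control (untreated Hi cells). Each group held 3 biological replicates with 1 array each, 12 arrays in all, and whether replicates came from separately adapted cultures is not given in the sources used here. Folate level cannot be told apart from whatever else came to differ during the adaptation of the Lo cultures.

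As background, interleukin 1 alpha and interleukin 1 beta bind the receptor encoded by IL1R1, which signals together with the accessory chain encoded by IL1RAP. The product of IL1RN binds the same receptor without starting a signal. The IL33 protein, a nuclear protein of endothelial and epithelial cells that is released on damage, signals through the product of IL1RL1 (ST2) with the same accessory chain. Interleukin 1 beta and interleukin 18 are made as precursors that the protease caspase 1 cuts, so a change in RNA is not a change in secreted cytokine. In endothelial cells interleukin 1 is known to induce adhesion molecules, chemokines and other cytokines.

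The values are RMA expression values on the log2 scale, so a difference of 1 is a doubling of the signal. Array medians lay between 7.24 and 7.33. Of the control arrays, 2 lay apart from their groups and touch most results here. They are the arrays labelled Lo control replicate 3 and Hi control replicate 3. For IL1A, IL1B, IL18, IL1RL1 and IL1RAP each of them lay closer to the mean of the other 2 controls of the opposite folate label than to that of its own. For IL1B the Lo-labelled array was 0.31 from the Hi mean and 1.82 from the Lo mean, and the Hi-labelled array 0.12 from the Lo mean and 2.01 from the Hi mean. The same held over all genes, where the first principal component (61.1% of the variance) put the Lo-labelled array at -19.3, against 7.18 and 6.75 for the other Lo controls and -20.1 and -17.8 for the other Hi controls. It put the Hi-labelled array at 8.94. The 2 labels may have been exchanged, which was not tested, and every 12-array value that uses a control group depends on it. Both arrays keep their labels, and the calls of the 8 genes are given with all 12 arrays and with the 10 arrays that leave them out. The 2 arrays were singled out after their values were seen, so the 10-array p-values are not independent of that choice. A gene was called when limma gave a Benjamini-Hochberg adjusted p under 0.05 over all genes. Of the endothelial markers fixed for the check of identity, PECAM1 had a mean of 12.3 and CDH5 of 12.18 in Lo PMX cells. CLDN5 lay at 7.81 and VWF at 6.76. Of the epithelial markers KRT7 stood at 12.23, KRT8 at 11.85 and EPCAM at 5.84 in the same cells. The macrophage markers CD68 and CD14 stood at 12.17 and 7.07, and the leukocyte genes NKG7 and PTPRC at 7.87 and 4.16. Bright genes occurred in several lists, so these levels alone do not set the cell type. The deposited values carry no detection call used here, so a low value cannot be told from background.

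Of the 8 genes, 5 lie on chromosome 2 in 2 neighbourhoods (RefSeq, GRCh38.p14). IL1R1 (chr2:102070390-102179874) and IL1RL1 (chr2:102311563-102352356) are part of the receptor cluster, and IL1A (chr2:112773925-112784493), IL1B (chr2:112829751-112836779) and IL1RN (chr2:113099360-113134014) of the ligand cluster. IL1RAP lies on chromosome 3, IL33 on chromosome 9 and IL18 on chromosome 11. RefSeq start regions, from 250 bases before to 50 bases after a start, were found for 7 of the 8 genes in 15 windows. Windows of 4 of the 5 genes called higher in Lo PMX than in Lo control cells are shown, those with the 4 largest rises in that comparison. For IL1RL1 both windows are shown, and for IL1A and IL33 1 of 2. Capitals mark matches to the AP-1 motif TGANTCA or to the TATA motif TATAAA on either strand.
IL1A, minus strand, chr2:112784444-112784743: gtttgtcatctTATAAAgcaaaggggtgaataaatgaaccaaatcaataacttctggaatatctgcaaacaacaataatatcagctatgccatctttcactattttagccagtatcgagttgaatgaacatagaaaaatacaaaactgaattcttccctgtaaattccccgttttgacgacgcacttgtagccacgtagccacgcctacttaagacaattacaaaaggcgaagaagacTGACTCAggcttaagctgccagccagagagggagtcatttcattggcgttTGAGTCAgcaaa
IL1B, minus strand, chr2:112836730-112837029: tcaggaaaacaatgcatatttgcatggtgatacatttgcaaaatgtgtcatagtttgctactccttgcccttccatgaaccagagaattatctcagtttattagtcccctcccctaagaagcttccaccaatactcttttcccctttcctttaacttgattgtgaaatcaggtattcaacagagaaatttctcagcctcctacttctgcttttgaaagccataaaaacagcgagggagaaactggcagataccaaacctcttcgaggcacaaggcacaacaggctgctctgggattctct
IL1RL1, plus strand, chr2:102311313-102311612: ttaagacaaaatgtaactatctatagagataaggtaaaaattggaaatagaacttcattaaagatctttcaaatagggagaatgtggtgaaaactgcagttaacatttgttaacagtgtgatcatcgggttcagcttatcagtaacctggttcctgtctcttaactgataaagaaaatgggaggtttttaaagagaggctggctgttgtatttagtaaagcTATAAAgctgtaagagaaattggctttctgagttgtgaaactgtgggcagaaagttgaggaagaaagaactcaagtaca
IL1RL1, plus strand, chr2:102337007-102337306: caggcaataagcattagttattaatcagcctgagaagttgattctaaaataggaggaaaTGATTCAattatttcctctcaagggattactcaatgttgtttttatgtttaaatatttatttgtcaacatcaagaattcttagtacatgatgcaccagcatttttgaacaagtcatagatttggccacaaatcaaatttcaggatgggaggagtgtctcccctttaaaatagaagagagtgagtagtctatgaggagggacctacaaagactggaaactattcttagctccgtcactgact
IL33, plus strand, chr9:6214899-6215198: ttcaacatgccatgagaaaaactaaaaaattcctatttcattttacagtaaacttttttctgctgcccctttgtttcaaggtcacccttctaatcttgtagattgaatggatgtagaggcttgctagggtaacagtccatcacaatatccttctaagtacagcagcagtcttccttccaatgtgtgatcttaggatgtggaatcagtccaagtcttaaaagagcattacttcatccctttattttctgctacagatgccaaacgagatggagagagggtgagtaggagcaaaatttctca
The IL1A window held 2 AP-1 matches, at bases -12 to -6 and 39 to 45 from the start, and a TATA match at -239 to -234, and the second IL1RL1 window held 1, at -191 to -185. The first IL1RL1 window had a TATA match at -29 to -24, and the IL1B and IL33 windows shown had none of these motifs. An AP-1 match was also present in 1 of 3 windows of IL1RN, whose RNA did not pass the test in any comparison. AP-1 matches were found in 7.71% and TATA matches in 11.5% of 35116 such windows of all genes. The NF-kB consensus, found in 11.3% of all windows, had no match in any of the 15. The array has 1 probe set per gene here, so the start that was used was not measured, nor were the membrane and soluble forms of the IL1RL1 and IL1RAP products.

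**Figure D1:**
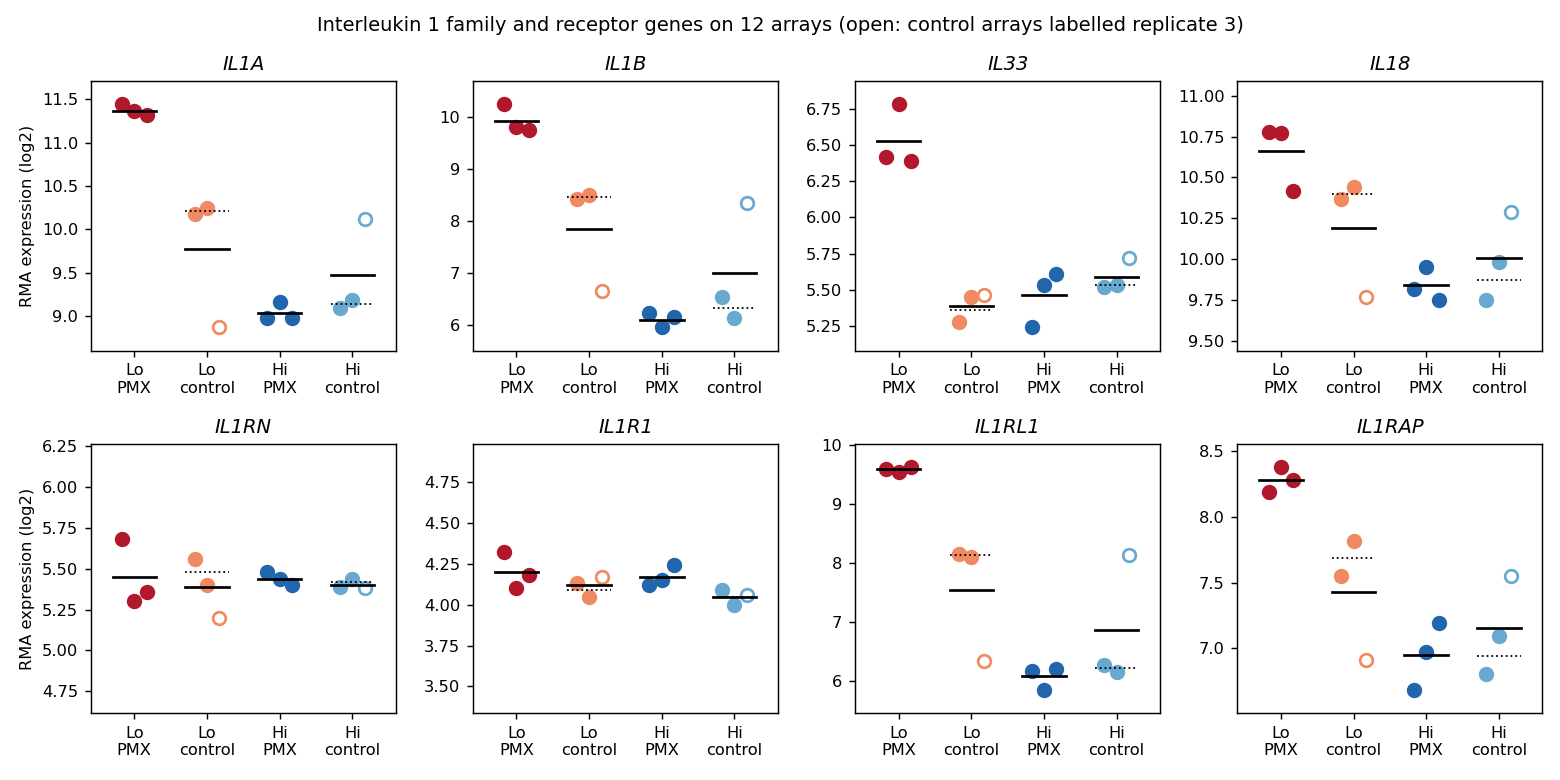
RMA expression (log2) of the 8 genes on each of the 12 arrays, by group. Filled points are single arrays, open points the control arrays labelled replicate 3, solid lines means of 3 arrays and dotted lines control means without the open points. IL1A, IL1B, IL1RL1 and IL1RAP form steps over the groups, IL33 is high in Lo PMX cells, and IL1RN and IL1R1 are level.

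The effect of pemetrexed in low folate was read from Lo PMX against Lo control arrays. Of the 8 genes, 5 rose and 0 fell with all 12 arrays: the ligands IL1A, IL1B and IL33 and the receptor chains IL1RL1 and IL1RAP. IL18, IL1RN and IL1R1 did not pass the test. The groups of the 5 did not overlap, which held in the same direction for 15.7% of all genes. In this comparison 5.6% of all genes were called higher, and the median log2 change was 1.00 over the 8 genes and 0.02 over all genes. With the 10 arrays the same 5 genes were called higher, against 5.21% of all genes.

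IL1A, an alarmin that is active without being cut, stood at 11.44, 11.37 and 11.32 in Lo PMX cells, against 10.18, 10.25 and 8.87 in Lo control cells. The 3 treated arrays lay close together and above every control array. The difference was 1.61 ± 0.32 (SE) on the log2 scale, a 3.05-fold rise (95% CI 1.88 to 4.94, limma adjusted p = 0.00674). Without the 2 arrays labelled replicate 3 it was 1.16 ± 0.08, or 2.23-fold (1.97 to 2.53, limma adjusted p = 1.02e-05).

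IL1B stood at 10.24, 9.81 and 9.74 in Lo PMX cells, against 8.42, 8.50 and 6.64 in Lo control cells. All treated arrays lay above all controls, and the lowest control was the array labelled replicate 3. The rise was 4.22-fold (95% CI 1.91 to 9.33, limma adjusted p = 0.0242) with 12 arrays and 2.77-fold (2.20 to 3.50, limma adjusted p = 8.92e-05) with 10. The same array pulled the control mean of IL1B to 7.85 ± 1.05 (SD, n = 3), against 8.46 ± 0.05 (SD, n = 2) without it.

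IL33 stood at 6.42, 6.78 and 6.39 in Lo PMX cells, against 5.28, 5.45 and 5.46 in Lo control cells. Here the control labelled replicate 3 lay with the other controls. The rise was 2.20-fold (95% CI 1.84 to 2.63, limma adjusted p = 9.47e-05) with 12 arrays and 2.25-fold (1.84 to 2.74, limma adjusted p = 0.000149) with 10. IL33 kept its call under every alternative that tested it, but the filter on dim genes left it out.

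IL18 stood at 10.78, 10.77 and 10.42 in Lo PMX cells, against 10.37, 10.44 and 9.77 in Lo control cells, and the groups overlapped. Its difference was 0.46 ± 0.18 (SE), 95% CI 0.08 to 0.84, with limma adjusted p = 0.123. With 10 arrays it was 0.25 ± 0.12 (limma adjusted p = 0.225). A block on replicate number in those 10 arrays gave 0.33 ± 0.08, which passed (limma adjusted p = 0.0156), in a fit that called 8.39% of all genes higher.

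The antagonist gene IL1RN stood at 5.68, 5.30 and 5.36 in Lo PMX cells, against 5.56, 5.40 and 5.20 in Lo control cells. The groups overlapped, and the difference of 0.06 ± 0.11 did not pass (limma adjusted p = 0.801), with an interval from 0.891-fold to 1.22-fold.

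Among the receptors, IL1RL1, which encodes ST2, the receptor of the IL33 protein, stood at 9.59, 9.53 and 9.62 in Lo PMX cells, against 8.15, 8.10 and 6.33 in Lo control cells. The treated arrays were nearly equal and lay above all controls. The rise was 4.15-fold (95% CI 1.95 to 8.85, limma adjusted p = 0.0201) with 12 arrays and 2.74-fold (2.35 to 3.20, limma adjusted p = 1.02e-05) with 10. IL1RAP, the shared accessory chain, stood at 8.19, 8.38 and 8.28 in Lo PMX cells, against 7.55, 7.82 and 6.91 in Lo control cells. Its groups did not overlap either, and it rose 1.81-fold (1.29 to 2.53, limma adjusted p = 0.0276) with 12 arrays and 1.51-fold (1.22 to 1.88, limma adjusted p = 0.0179) with 10. IL1R1, the signalling receptor of interleukin 1 alpha and beta, stood at 4.32, 4.10 and 4.18 in Lo PMX cells, against 4.13, 4.05 and 4.17 in Lo control cells. The difference of 0.08 ± 0.07 did not pass (limma adjusted p = 0.581), and its interval ran from 0.948-fold to 1.18-fold. For IL1R1 and IL1RN a value near background would hide a change, which was not tested. The same limit may hold for IL33 outside Lo PMX cells, with a mean of 5.39 in Lo control cells, close to IL1RN. It may also hold for IL1B and IL1RL1 in Hi PMX cells. Their means there were 6.10 and 6.07, below 6.44, the 25th percentile of gene means. Fold changes against such levels may be distorted, which was not tested.

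In the 12-array fit the calls of IL1B, IL1RL1 and IL1RAP depended on single arrays. Without the array labelled Lo control replicate 3 the changes were 1.47 for IL1B (limma adjusted p = 0.0840), 1.46 for IL1RL1 (0.0663) and 0.60 for IL1RAP (0.0959). The array labelled Hi control replicate 3 still entered the shared spread there. In the 10-array fit, which leaves out both, the changes were the same and were called, at 1.47 ± 0.15, 1.46 ± 0.10 and 0.60 ± 0.14. Without Lo PMX replicate 1, 2 or 3 they also missed the threshold, at adjusted p from 0.0603 to 0.0890 for IL1B, 0.0560 to 0.0678 for IL1RL1 and 0.0606 to 0.0887 for IL1RAP. IL1A and IL33 kept their calls in each of these fits. Endothelial markers moved in the same comparison: the mean over 8 of them lay between 10.03 and 10.13 on the Lo PMX arrays and between 10.40 and 11.00 on the Lo control arrays, with 3 of 8 called lower and 0 higher, where 5.14% of all genes were called lower, and 5 of 8 lower with 10 arrays, against 5.74% of all genes. The mean over 7 monocyte and macrophage markers lay between 7.35 and 7.45 on the Lo PMX arrays and between 7.39 and 7.49 on the Lo control arrays. Of these 7, the lysozyme gene LYZ was called lower (-0.81 ± 0.13, limma adjusted p = 0.00177) and 0 were called higher. The part of these shifts in the interleukin 1 results was not tested.

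**Figure D2:**
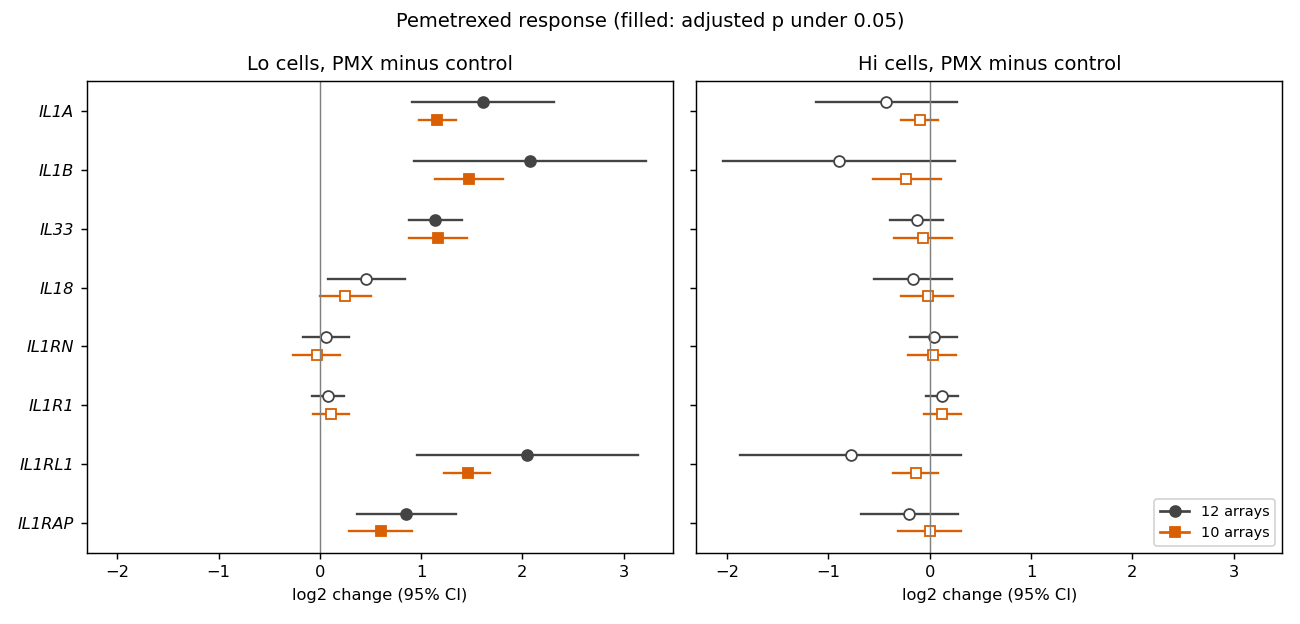
Log2 change with its 95% confidence interval for pemetrexed-treated minus control arrays, in Lo cells (left) and Hi cells (right), with all 12 arrays (circles) and with 10 (squares). Filled symbols passed limma's test. In Lo cells the symbols of 5 genes are filled in both fits, while in Hi cells no symbol is filled.

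In folate-replete cells the same treatment left no called gene. Limma called 0 of the 8 between Hi PMX and Hi control cells, with 12 or with 10 arrays, and 0 of them had an unadjusted p under 0.05 in either fit. Across all genes 0% were called, and 266 genes with 12 arrays and 335 with 10 had an unadjusted p under 0.05. The lack of calls does not show that there was no response. IL1B stood at 6.22, 5.95 and 6.14 in Hi PMX cells, against 6.53, 6.12 and 8.34 in Hi control cells. The array labelled Hi control replicate 3 was the high one. The difference of -0.90 ± 0.53 (limma adjusted p = 1.0) was -0.23 ± 0.15 without it and the Lo array labelled replicate 3, with an interval from 0.678-fold to 1.08-fold.

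IL1RL1 gave the same picture, with 6.17, 5.84 and 6.20 in Hi PMX cells, against 6.27, 6.15 and 8.13 in Hi control cells. Its difference was -0.78 ± 0.50 with 12 arrays and -0.14 ± 0.10 with 10. With a replicate block in the 10 arrays it was -0.18 ± 0.08 (limma unadjusted p = 0.0485, adjusted p = 0.83). IL1A stood at 8.98, 9.16 and 8.98 in Hi PMX cells, against 9.09, 9.19 and 10.12 in Hi control cells, a difference of -0.43 ± 0.32 or, with 10 arrays, -0.10 ± 0.08. With 10 arrays the intervals of IL1A (0.823-fold to 1.06-fold) and IL1RL1 (0.777-fold to 1.06-fold) left out the rises seen in Lo cells. IL33 stood at 5.24, 5.53 and 5.61 in Hi PMX cells, against 5.52, 5.53 and 5.72 in Hi control cells (-0.13 ± 0.12). IL18 (-0.16 ± 0.18), IL1RAP (-0.20 ± 0.22), IL1RN (0.04 ± 0.11) and IL1R1 (0.12 ± 0.07) did not pass either. IL1R1 was the 1 gene of the 8 whose groups did not overlap, at 4.12, 4.15 and 4.24 in Hi PMX cells against 4.09, 4.00 and 4.06 in Hi control cells, where 2.48% of all genes did so in the same direction.

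An interaction term compared the response in Lo cells with that in Hi cells. With 12 arrays 4 of the 8 genes were called higher, against 2.57% of all genes: IL33, IL1A, IL1B and IL1RL1. IL33 responded 2.41-fold more in Lo than in Hi cells (95% CI 1.86 to 3.10, limma adjusted p = 0.00163). The ratio of responses was 4.10 for IL1A (2.07 to 8.12, limma adjusted p = 0.0247). With 10 arrays the same 4 were called, against 2.02% of all genes, and the ratios were 3.25 for IL1B (2.34 to 4.50, limma adjusted p = 0.0011), 3.02 for IL1RL1 (2.42 to 3.76, limma adjusted p = 0.000247), 2.40 for IL1A (2.01 to 2.86) and 2.35 for IL33 (1.78 to 3.11). For IL1B, IL1RL1 and IL1A the 12-array ratios were larger than the 10-array ratios by over 1.5 times. IL1RAP did not pass with 12 arrays (1.06 ± 0.31, limma adjusted p = 0.0769) or with 10 (0.60 ± 0.20, limma adjusted p = 0.149). With a replicate block in the 10 arrays IL1RAP passed (0.60 ± 0.12, limma adjusted p = 0.00894), where 4.68% of all genes were called higher. IL18 (0.63 ± 0.25), IL1RN (0.02 ± 0.15) and IL1R1 (-0.04 ± 0.10) did not pass. In the 12-array fit the interaction calls of IL1A, IL1B and IL1RL1 were lost without any 1 of the Lo PMX or Hi PMX arrays (limma adjusted p 0.05 to 0.062, 0.0662 to 0.0947 and 0.0675 to 0.0978), and those of IL1B (2.37, limma adjusted p = 0.0628) and IL1RL1 (2.23, limma adjusted p = 0.0581) also without the array labelled Lo control replicate 3.

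How these genes differed between Lo and Hi cells without pemetrexed was examined by Lo control against Hi control arrays. Folate level cannot be told apart from adaptation here either. The answer rested on the 2 arrays labelled replicate 3. With 12 arrays limma called 0 of the 8 genes, 0% of all genes, and none of the 8 had an unadjusted p under 0.05. With the 10 arrays 5 of the 8 were called higher, against 3.67% of all genes: IL1A, IL1B, IL18, IL1RL1 and IL1RAP. The same 5 were called with a replicate block, against 6.73% of all genes. For these 5 genes both arrays lay nearer the opposite folate label, so leaving them out widened the difference and narrowed the spread. The 10-array p-values are not independent of that choice. In the fit without the block IL1B stood at 8.42 and 8.50 in Lo control cells, against 6.53 and 6.12 in Hi control cells, a 4.38-fold difference (95% CI 3.40 to 5.64, limma adjusted p = 1.89e-05). With 12 arrays it was 1.81-fold (0.817 to 3.99).

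In the 10-array fit IL1RL1 differed 3.78-fold (3.19 to 4.48, limma adjusted p = 2.95e-06), with 8.15 and 8.10 in Lo control cells, against 6.27 and 6.15 in Hi control cells. IL1A differed 2.11-fold (1.83 to 2.42, limma adjusted p = 3.14e-05), IL1RAP 1.67-fold (1.32 to 2.12, limma adjusted p = 0.0125) and IL18 1.45-fold (1.20 to 1.76, limma adjusted p = 0.0234). With 12 arrays these 4 stood at 0.68 ± 0.50, 0.30 ± 0.32, 0.28 ± 0.22 and 0.19 ± 0.18 on the log2 scale, in the order given. IL33 did not pass in either fit, at -0.19 ± 0.12 with 12 arrays and -0.16 ± 0.14 with 10 (limma adjusted p = 0.663). No call was made although its Lo control arrays lay below all its Hi control arrays, as for 3.61% of all genes with 12 arrays. IL1RN (0.06 ± 0.12) and IL1R1 (0.04 ± 0.09) did not pass with 10 arrays either. Of 8 endothelial markers 4 were called lower and 0 higher with 10 arrays, against 3.5% of all genes called lower: VWF (-2.36 ± 0.21), ROBO4 (-1.04 ± 0.10), PECAM1 (-0.67 ± 0.09) and ERG (-0.30 ± 0.08). Of 8 epithelial and lung carcinoma markers the keratin genes KRT7 (0.53 ± 0.08) and KRT8 (0.44 ± 0.09) were called higher, against 3.67% of all genes. The other 6 were not called. With 12 arrays 0 of either list were called. The part of these shifts in the folate difference was not tested.

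**Figure D3:**
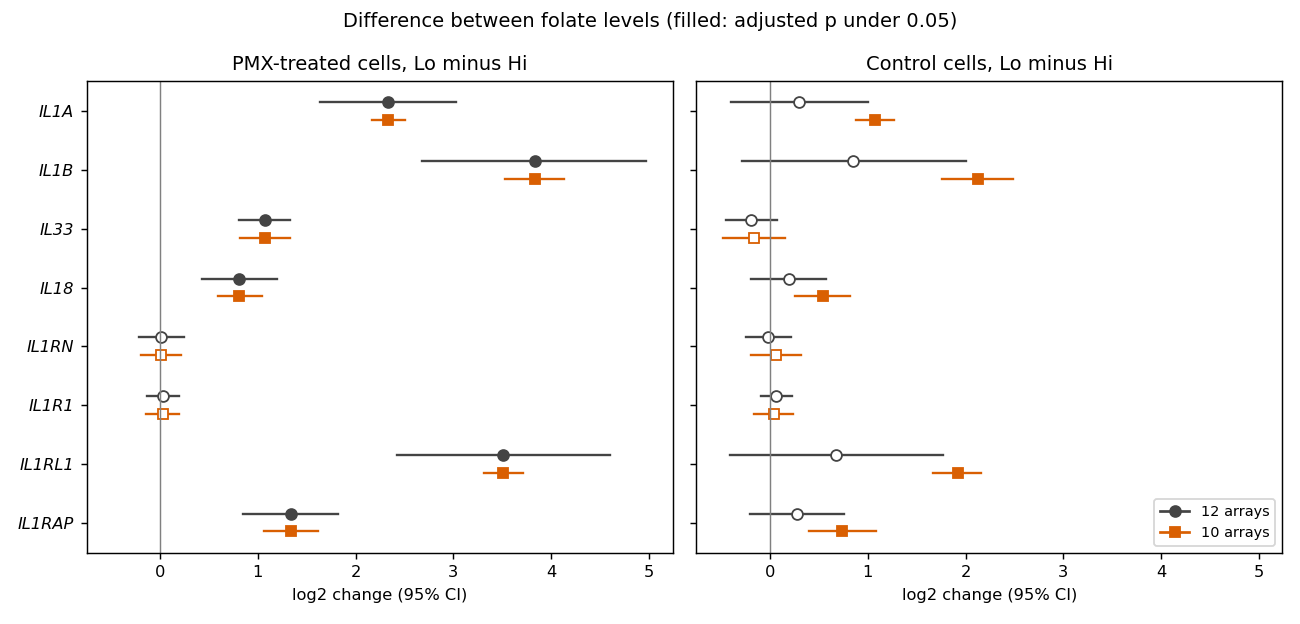
Log2 difference with its 95% confidence interval for Lo minus Hi cells, among pemetrexed-treated arrays (left) and control arrays (right), with all 12 arrays (circles) and with 10 (squares). Filled symbols passed limma's test. The treated comparison has 6 filled genes in both fits, and the control comparison has 5 with 10 arrays and 0 with 12.

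The comparison of folate levels among treated cells uses Lo PMX and Hi PMX arrays. Neither control array labelled replicate 3 enters its means, but both enter the spread estimated in the 12-array fit. The intervals and p-values below come from that fit. For IL1B the SE was 0.53 with 12 arrays and 0.14 with 10, where the fold interval was 11.6 to 17.5. For IL1RL1 the SE was 0.50 with 12 arrays and 0.09 with 10. Of the 8 genes 6 were higher in Lo PMX cells with 12 and with 10 arrays, against 11.3% and 13.7% of all genes called higher. Their groups did not overlap, as for 18.6% of all genes in that direction. IL1B differed most, at 10.24, 9.81 and 9.74 in Lo PMX cells against 6.22, 5.95 and 6.14 in Hi PMX cells, a 14.2-fold difference (95% CI 6.43 to 31.4, limma adjusted p = 0.000416). IL1RL1 was 11.4-fold higher (5.36 to 24.3, limma adjusted p = 0.000514) and IL1A 5.04-fold (3.11 to 8.18, limma adjusted p = 0.000414). IL1RAP was 2.53-fold higher (1.81 to 3.53), IL33 2.10-fold (1.75 to 2.52) and IL18 1.76-fold (1.35 to 2.29), with limma adjusted p = 0.00127, 0.000114 and 0.00571 in that order. IL18 stood at 10.78, 10.77 and 10.42 in Lo PMX cells, against 9.82, 9.95 and 9.75 in Hi PMX cells. These 6 calls held in every leave-one-out fit. In the same comparison 7 of 8 endothelial markers were called lower with 12 and with 10 arrays, at a median of -0.76, where 11% of all genes were called lower with 12. Among them were VWF (-2.46 ± 0.62), ROBO4 (-1.37 ± 0.27) and PECAM1 (-1.09 ± 0.20), and the part of this shift was not tested. IL1RN (0.01 ± 0.11) and IL1R1 (0.03 ± 0.07) did not pass, and the interval of IL1RN ran from 0.856-fold to 1.18-fold.

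The genes fell into different orders over the groups. For IL1B, IL1RL1 and IL1A in the 10 arrays the order from high to low was Lo PMX, Lo control, Hi control and Hi PMX, with means for IL1B of 9.93 ± 0.27, 8.46 ± 0.05, 6.33 ± 0.29 and 6.10 ± 0.14 (SD, n = 3, 2, 2 and 3). Each step down to the Hi cells passed limma's test, and Hi PMX against Hi control did not pass it. IL1RAP had means of 8.28 in Lo PMX, 7.69 in Lo control, 6.95 in Hi PMX and 6.94 in Hi control cells, the last 2 nearly equal. IL18 had Lo PMX (10.66 ± 0.20) and Lo control (10.40 ± 0.06) as neighbours that did not pass the test, both above Hi cells. IL33 was high in Lo PMX cells at 6.53 ± 0.22, against 5.36 ± 0.12 in Lo control, 5.46 ± 0.19 in Hi PMX and 5.53 ± 0.01 in Hi control cells. Of these lower groups, Lo control against Hi control did not pass the test although their arrays did not overlap, and Hi PMX against Hi control did not pass it either. Over all 12 arrays IL1RL1 spanned 13.7-fold and IL1B 19.6-fold, while IL1RN spanned 1.40-fold and IL1R1 1.24-fold. The comparisons share arrays, so these orders are 1 pattern seen from several sides.

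Among 1410 other genes that spanned at least 1 log2 unit over the 12 arrays, the gene whose values followed IL1B most closely was IL1RL1 (Pearson r = 0.995), followed by JAG1, a Notch ligand gene (0.993), LRATD1 (0.990), PVR, a cell adhesion receptor gene (0.989), and the transcription factor gene BHLHE40 (0.989). For IL1RL1 the closest were JAG1 (0.997), SNAPC1, a subunit gene of the small nuclear RNA activating complex (0.996), TNFAIP3, an NF-kB feedback inhibitor (0.996), BHLHE40 (0.995) and IL1B (0.995). IL1A followed IL1B at r = 0.979. IL33 had other companions: TXNL4B (0.975), RIOK3 (0.970), the receptor adaptor gene TRAF1 (0.966), the stress gene GADD45A (0.966) and TES (0.959). Its r with IL1B was 0.765 and with IL1RL1 0.781. These correlations describe 12 arrays that share 4 groups, and differences between groups make up most of them.

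The rest of the pathway was taken from lists of genes with known roles. In Lo PMX against Lo control cells their counts stand against 5.6% of all genes called higher and 5.14% called lower, and counts of 1 or 2 genes in lists of 14 to 20 are near those shares. Of 14 other family members and receptors 0 rose and 1 fell in Lo PMX against Lo control cells, with a median of 0.05. That gene was SIGIRR, which encodes an inhibitory receptor of the family (-0.44 ± 0.12, limma adjusted p = 0.0332, and 0.105 with 10 arrays). Of 18 measured genes of signalling near the receptor 2 rose and 0 fell: TAB3, an adaptor of the kinase TAK1 (0.44 ± 0.10), and MYD88, the first adaptor of the receptors (0.24 ± 0.07, limma adjusted p = 0.0478, just inside the threshold). Their median was 0.12. Of 20 genes of processing and release 1 rose and 1 fell, with a median of 0.03: the channel gene PANX1 (0.58 ± 0.16) rose, and TXNIP, whose product binds thioredoxin and NLRP3, fell (-0.58 ± 0.12). In Lo PMX against Hi PMX cells 4 of these 20 were higher and 3 lower, where 11.3% of all genes were called higher and 11% lower, with a median of 0.10. The higher ones were the protease gene CASP1 (0.92 ± 0.22), the inflammasome sensor gene NLRP3 (0.75 ± 0.19), PANX1 (0.58 ± 0.16) and the pore-forming gasdermin gene GSDME (0.47 ± 0.13). The lower ones were TXNIP (-0.54 ± 0.12), NINJ1, whose product takes part in membrane rupture (-0.40 ± 0.10), and the calpain gene CAPN2 (-0.27 ± 0.07). Of the 18 signalling genes 2 were higher in that comparison, TAB3 (0.46 ± 0.10) and IKBKB (0.28 ± 0.08). There 3 were lower: IRAK2 (-1.08 ± 0.24), MAP3K3 (-0.80 ± 0.15) and MAP3K7 (-0.32 ± 0.10). Of the 14 other family members and receptors 1 was higher, IL37 (0.45 ± 0.10), and 1 lower, SIGIRR (-0.67 ± 0.12). In Lo control against Hi control cells with 10 arrays 3 of the 20 processing genes were called higher and 1 lower. Of all genes 3.67% were called higher and 3.5% lower there. The higher ones were CASP1 (0.70 ± 0.11, limma adjusted p = 0.00234), NLRP3 (0.66 ± 0.09, limma adjusted p = 0.00106) and CARD16 (0.51 ± 0.13, limma adjusted p = 0.0406). CARD8 was lower (-0.41 ± 0.11, limma adjusted p = 0.0392). With 12 arrays 0 of the 20 were called, with CASP1 at 0.21 ± 0.22 and NLRP3 at 0.21 ± 0.19.

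Of 30 measured genes known as interleukin 1 targets in endothelial cells 11 rose and 1 fell in Lo PMX against Lo control cells, with a median of 0.30, where 5.6% of all genes were called higher and 5.14% lower. The genes with the smallest p were TRAF1 (1.72 ± 0.09), the cytokine genes IL11 (1.21 ± 0.17) and LIF (1.36 ± 0.20), and ICAM1, the leukocyte adhesion receptor gene (0.75 ± 0.12). The gene that fell was CCL2, a monocyte chemokine (-0.64 ± 0.12). The other 18 were not called, among them the adhesion genes VCAM1 and SELE (both 0.0 ± 0.08). IL6 (0.75 ± 0.31) and CXCL8 (1.13 ± 0.38) were also not called with 12 arrays, though both were with 10. With 10 arrays 13 rose and 1 fell, with a median of 0.25, where 5.21% of all genes were called higher and 5.74% lower. In Hi PMX against Hi control cells 0 of the 30 were called with 12 or with 10 arrays. In Lo control against Hi control cells 7 of the 30 were higher and 1 lower with 10 arrays, and 0 were called with 12. Of all genes 3.67% were called higher and 3.5% lower there with 10 arrays. The higher targets included TNFAIP3 (1.89 ± 0.12) and PTGS2 (1.26 ± 0.13), and the lower one was MMP10 (-1.89 ± 0.16). In Lo PMX against Hi PMX cells 14 of the 30 were higher and 4 lower with 12 arrays. Of all genes 11.3% were called higher and 11% lower in that comparison. The lower targets were MMP10 (-1.55 ± 0.52), IER3 (-0.51 ± 0.12), CCL2 (-0.47 ± 0.12) and NFKBIA (-0.45 ± 0.11). The list was chosen with earlier results of these data known and is not independent support for a direction. Whether interleukin 1 protein acted on these genes was not tested.

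**Figure D4:**
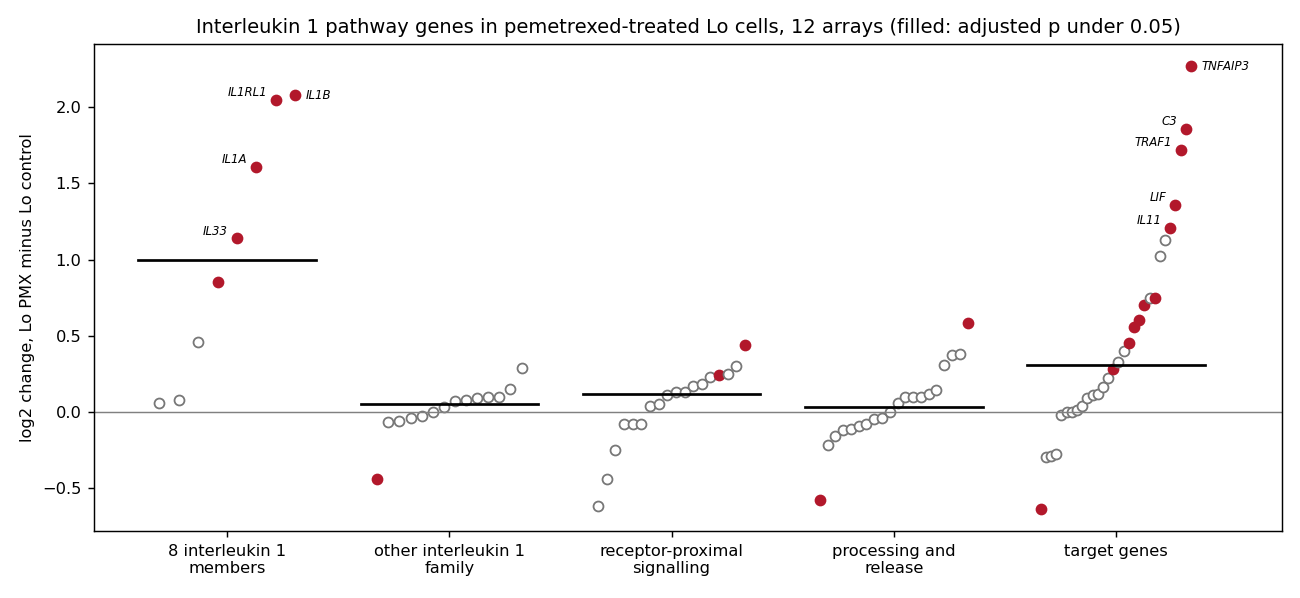
Log2 change in Lo PMX minus Lo control arrays (12 arrays) for the 8 genes and for the 4 pathway lists, each sorted by size, with a line at the median. Filled points passed limma's test: 5 of the 8 genes and 11 risen targets, against 0 risen in the other family members, 2 in receptor signalling and 1 in processing and release.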

How the data were processed

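Total RNA of 12 EA.hy 926 cultures was labelled with an Affymetrix kit for arrays, per the labels' protocols. The authors deposited log2 expression values, 1 per probe set and array. Partek 6.5 and RMA are named in the submitters' processing notes. RMA settings are not given in the sources used here. Of 33297 probe sets 19460 had 1 gene symbol, 1754 several and 12083 none, and the brightest by mean over 12 arrays was kept for each of 18417 genes. Identifiers were matched to RefSeq genes of GRCh38.p14 (19429 of 19460). No filter on dim genes was applied, and precision is limited by how many arrays there are.

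One mean per group was fitted with limma 3.58.1 in R 4.3.3 to all arrays. Tests were two-sided, with Benjamini-Hochberg adjusted p under 0.05 over all genes, and p-values measure the spread between replicates of 1 cell line. The fit was tested on simulated data with independent arrays. The simulation held no exchanged control arrays and no shared replicate effect, so it cannot speak to either. The named genes are the 8 members, up to 4 called genes per list with the smallest p and any called the other way, and the 5 genes most correlated with IL1B, IL33 and IL1RL1. Single marker genes, and the pathway genes named between Lo PMX and Hi PMX cells or between controls, were named after their values were seen. So were the targets named as not called. The members and lists were chosen with earlier results of these data known. Alternatives left out arrays, added the replicate number as a block, centred arrays, dropped dim genes, changed the variance model, fitted only the groups compared or averaged probe sets. Same-numbered samples deviated together in the 10 arrays (all 13 pairs at r over 0.1, from 0.115 to 0.543), but not in all 12 (11 of 18 pairs), so the block is read there only.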

Additional observations from a re-analysis of the deposited data

Results flagged for a closer look

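The response to pemetrexed differed between Lo and Hi cells, by a direct test of the difference, for 4 genes with all 12 arrays. All 4 were called higher, against 2.57% of all genes. As the Lo response minus the Hi response, the difference was 2.98 ± 0.75 (SE) log2 units for IL1B, 2.83 ± 0.71 for IL1RL1, 2.04 ± 0.45 for IL1A and 1.27 ± 0.17 for IL33 (limma adjusted p = 0.0407, 0.0409, 0.0247 and 0.00163). With the 10 arrays the values were 1.70 ± 0.22, 1.60 ± 0.15, 1.26 ± 0.12 and 1.24 ± 0.18. All 3 Lo PMX arrays lay above all Lo control arrays for each of the 4 genes, as for 15.7% of all genes.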

How the results depend on the processing

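The differences and calls of the 8 genes and the counts over all genes were recomputed under each alternative, while pathway and marker lists were computed with 12 and with 10 arrays only. In low folate, pemetrexed called 3 of the 8 genes with a trend and robust variance model and 2 to 5 when 1 array was left out, against 5 with all arrays. The count over all genes ran from 1170 to 2563 over the arrays left out. It was 1872 with the trend and robust model, against 1978 in the main fit. For the interaction, 2 of the 8 genes were called with a replicate block in 12 arrays, 1 with the trend and robust model and 1 to 5 with 1 array left out, against 4, and the count over all genes ran from 443 to 956. For low folate in control cells, 0 genes were called with 12 arrays, 1320 with 10 and 2422 with 10 and the block, and 5 of the 8 genes in each of the last 2 fits. The filter on dim genes left out IL33, IL1RN and IL1R1, so 4 of the 8 were called in low folate and 3 in the interaction. A fit of only the groups compared was not run for the interaction, which needs all 4 groups. The cause of these changes was not tested.

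With the replicate number as a block in the 10 arrays, where it paired the samples, 3385 genes were called for pemetrexed in Lo cells, 6554 for folate in treated cells and 1738 for the interaction. Among the 8 genes the block in those arrays added the calls of IL18 and IL1RAP given in the report and changed no other.

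Signs turned only for differences near 0 that were not called. For IL1RN the pemetrexed difference in Lo cells was -0.03 with 10 arrays and -0.05 to 0.15 with 1 array left out. Its folate difference in control cells was 0.06 with 10 arrays, with or without the block, and -0.11 to 0.08 with 1 array left out, the same range as in treated cells. Its interaction was -0.06 with 10 arrays, with or without the block, and -0.09 to 0.11 with 1 array left out. IL1R1 ranged from -0.03 to 0.08 for folate in treated cells and from -0.10 to 0.01 for the interaction with 1 array left out. In Hi cells the pemetrexed difference of IL18 was 0.06 with the block in 10 arrays, and that of IL1RAP was 0.00 with 10 arrays and -0.38 to 0.00 with 1 array left out.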
